A study of Mus musculus with 6 samples.

Results

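Cyclin-dependent kinase inhibitors, the p53 axis and the stress cytokine Gdf15 were followed with age in mouse RPE/choroid, the retinal pigment epithelium together with the vascular choroid behind it. The 10 genes were taken by symbol from the 33924 genes of the deposited table and are Cdkn1a, Cdkn1b, Cdkn2a, Cdkn2b, Cdkn2c, Cdkn2d, Trp53, Mdm2, Rb1 and Gdf15. The imprinted inhibitor Cdkn1c was not among them. RPE/choroid was collected from unmodified C57BL/6J mice given no treatment that the labels name, with 3 libraries from young mice (1 to 2 months) and 3 from aged mice (20 to 24 months in the sample titles, 22 to 24 months in the time label). All mice are labelled male, whereas the study's methods name both sexes and an older range for the young group, so sex and young age are uncertain. The libraries held total RNA depleted of ribosomal RNA and read with a stranded kit. For each gene the table gives a mean of all 6 libraries in normalized counts (baseMean), a log2 fold change, the standard error (SE) of that change, and a DESeq2 Wald p with its Benjamini-Hochberg adjusted p. No value per mouse and no depth per library was analysed here, so replicate error enters only through the SE. The sign of the fold change is given as aged over young, which rests on reading the deposited sign as young over aged.

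A cell that stops dividing for good usually does so through 2 connected routes. In the first, p53 (encoded by Trp53) is stabilized when its ubiquitin ligase Mdm2 releases it and switches on Cdkn1a, whose product p21 blocks cyclin-dependent kinases. In the other, the Ink4 proteins encoded by Cdkn2a, Cdkn2b, Cdkn2c and Cdkn2d bind Cdk4 and Cdk6, which leaves the retinoblastoma protein Rb1 unphosphorylated and able to hold back the E2F factors that drive S phase. The RPE of an adult mouse is a layer of cells that have left the cell cycle, so inhibitors of this kind are part of its normal state, and the same genes are widely used as markers of senescence. Gdf15 is a secreted cytokine of the TGF-beta superfamily that p53 and the integrated stress response can both induce.

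Of the 10 genes, Gdf15 was higher in aged RPE/choroid and no other passed the test. Cdkn2a lay below the abundance at which the table gives an adjusted p, and the other 9 were tested. At an adjusted p under 0.05 in the DESeq2 values, 1 of these 9 was higher and 0 were lower, against 21.2% of the 18636 genes tested in the whole table (11.3% higher and 9.92% lower). At an unadjusted p under 0.05 there were 3 of the 10, Gdf15, Cdkn1a and Cdkn2c, all higher in aged mice, and 0 lower. Among all 26521 genes with a p, 6336 passed this unadjusted threshold in either direction. In a list of 10 genes a count of 3 cannot be set apart from that share. The median log2 fold change of the 9 was 0.05, beside -0.01 over all genes tested. With the median change of genes at a baseMean of at least 100 set to 0 (centred fold changes), the median of the 9 was -0.01, and rises made up 42.0% of all calls in the table in place of 53.2%. Because RPE/choroid was read in bulk, a change in the number of cells of one type and a change in RNA per cell cannot be told apart.

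**Figure D1:**
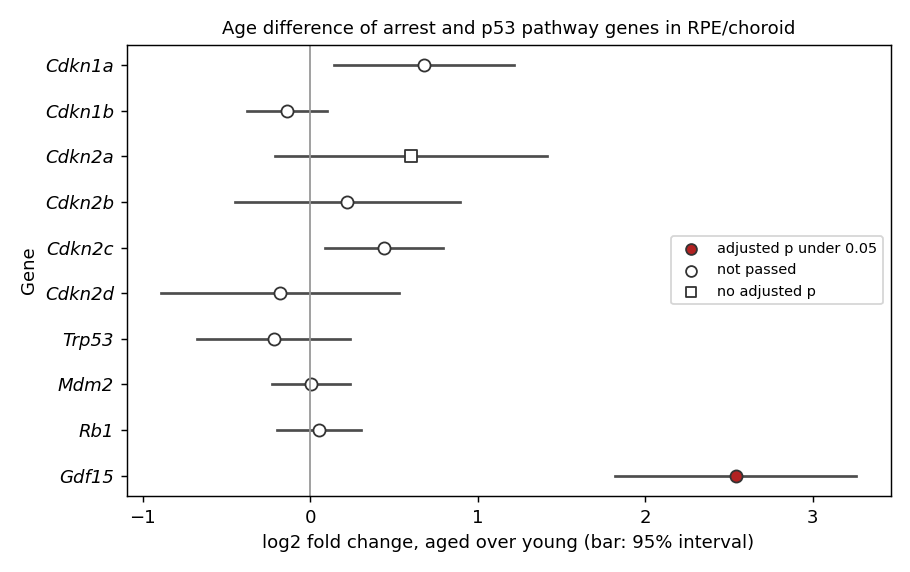
Log2 fold change of each gene, aged over young (horizontal axis), with its 95% interval as a bar, from 3 young and 3 aged libraries. Gdf15 (filled) sits at 2.54 with an interval from 1.82 to 3.26, the intervals of Cdkn1a and Cdkn2c lie above 0 without passing the adjusted test, and the other 7 intervals cross 0; Cdkn2a (square) has no adjusted p.

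Gdf15 lies on chromosome 8 at 70629393 to 70632456 on the minus strand (GRCm38, GENCODE M21; ENSMUSG00000038508). Its baseMean was 41.2 normalized counts, which with the fold change divides into about 12.1 in young and 70.3 in aged libraries. Such group levels are worked out from the baseMean and the fold change, with equal group sizes, and are approximate. Gdf15 RNA was 5.82-fold higher in aged mice (95% interval 3.54 to 9.57), a log2 fold change of 2.54 (SE 0.37) with a DESeq2 adjusted p of 1.73e-10. This was the 99th largest rise among the 18636 genes tested. Every 31-base word of its annotated transcripts (100%) was found in no other gene, and no other annotated gene overlaps it. Its SE was close to the median of 0.343 among the 2923 tested genes whose baseMean was within a factor of 2 of its own.

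The DNA upstream of Gdf15 and of Cdkn1a is shown because these genes had the largest log2 fold changes of the 9 tested. Both runs are RefSeq sequence of GRCm38.p6, 246 bases long, in the direction of the gene, and leave out the 4 bases next to the RefSeq start. Capitals mark matches to the 10-base p53 half-site on either strand, with 0 mismatches allowed.
Gdf15, chr8:70632461-70632706, minus strand: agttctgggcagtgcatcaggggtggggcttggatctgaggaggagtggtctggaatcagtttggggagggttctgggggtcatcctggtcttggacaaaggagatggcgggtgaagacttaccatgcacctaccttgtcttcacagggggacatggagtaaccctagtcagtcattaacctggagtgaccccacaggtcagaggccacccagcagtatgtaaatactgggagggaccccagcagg
Cdkn1a, chr17:29090729-29090974, plus strand: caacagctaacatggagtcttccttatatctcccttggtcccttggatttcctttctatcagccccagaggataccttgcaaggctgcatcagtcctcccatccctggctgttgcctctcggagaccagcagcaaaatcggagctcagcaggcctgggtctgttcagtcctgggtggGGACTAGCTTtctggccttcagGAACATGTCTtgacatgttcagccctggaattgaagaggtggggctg
Upstream of Cdkn1a the half-site occurred 2 times, at 73 to 64 and at 51 to 42 bases before the start, and neither overlapped the other. The bases directly after the second match come near the half-site without matching it in full, so they are not in capitals. This start is the upstream one of 2 RefSeq starts of the gene, and the window of the other start held no match. Gdf15 likewise has 2 RefSeq starts, of which the upstream one is shown, and neither window held a match to the half-site. Windows of 250 bases before a RefSeq start were found for 9 of the 10 genes, 13 windows in all, and not for Rb1. A p53 half-site was present in 4 of them, 1 each of Cdkn1a, Cdkn2d, Mdm2 and Trp53, while 7.13% of all 32851 windows held one. The other motifs were likewise searched on both strands. The AP-1 site TGANTCA was in 0 of the 13 windows (6.75% of all), the C/EBP-ATF response element TGATGNAA in 0 (3.45% of all), and the cyclic AMP response element TGACGTCA in 1, that of Cdkn2b (1.55% of all). A match is a run of letters and not a measured binding site, and a missing match says nothing about sites outside the window.

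Cdkn1a, the p21 gene and the best known p53 target, stood second in size of change among the tested genes but missed the threshold. It lies on chromosome 17 at 29090976 to 29100727 (plus strand). Its baseMean of 93.8 divides into about 72.1 normalized counts in young and 116 in aged libraries. The fold was 1.60 with a 95% interval from 1.10 to 2.33. The DESeq2 p was 0.013 before and 0.0582 after adjustment. Among the 3366 tested genes within a factor of 2 of its baseMean, absolute log2 changes down to 0.49 passed, and the 0.68 (SE 0.27) of Cdkn1a did not. The median SE of those genes was 0.259. An uncharacterised transcript overlaps Cdkn1a on the other strand and has no row under its name in the table.

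Cdkn1b encodes p27, the inhibitor that keeps many quiescent cells out of the cycle, and had the highest baseMean of the 10 genes. It lies on chromosome 6 at 134920401 to 134925513 (plus strand). Its baseMean was 2502, about 2620 normalized counts in young and 2380 in aged libraries. The fold was 0.910 with a 95% interval of 0.772 to 1.07 (DESeq2 adjusted p 0.462). The interval leaves room for a small change in either direction.

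The Ink4 genes were spread over a wide range of abundance. Cdkn2c, which encodes p18 (chromosome 4, 109660876 to 109667189), had a baseMean of 295, about 250 normalized counts in young and 339 in aged libraries, and a fold of 1.36 (95% interval 1.06 to 1.73). Its DESeq2 p was 0.014 before and 0.0615 after adjustment, on the same side of the threshold as Cdkn1a. Cdkn2b, which encodes p15, had a baseMean of 37.2 (about 34.4 in young and 40.1 in aged libraries), with a log2 fold change of 0.22 (SE 0.34) and an adjusted p of 0.706. Cdkn2d, which encodes p19 of the Ink4 family (chromosome 9, 21288410 to 21291407), had a baseMean of 28.1 (about 29.9 in young and 26.4 in aged libraries), with a log2 fold change of -0.18 (SE 0.36) and an adjusted p of 0.782. Among genes with a baseMean like that of Cdkn2b and Cdkn2d the smallest absolute log2 changes that passed were 0.68 and 0.735. These values belong to other genes with SEs of their own, so they give no exact limit of detection for Cdkn2b or Cdkn2d.

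Cdkn2a is the most used marker of senescence, since it encodes p16Ink4a and, from another first exon and reading frame, p19Arf, which binds Mdm2 and protects p53. Its RNA was at the edge of detection. The baseMean was 2.35 normalized counts, about 1.87 in young and 2.84 in aged libraries, and ranked 21264 of the 33924 genes. The log2 fold change was 0.60 (SE 0.41) with a 95% interval from -0.21 to 1.42 and an unadjusted p of 0.147. This interval holds a fall to 0.864-fold as well as a rise to 2.67-fold. The p16 and p19Arf transcripts share exons and stand in 1 row, so they could not be separated. Cdkn2a lies on chromosome 4 at 89274471 to 89294653 (minus strand), 11645 bases from Cdkn2b, which lies at 89306299 to 89311039 on the same strand.

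**Figure D2:**
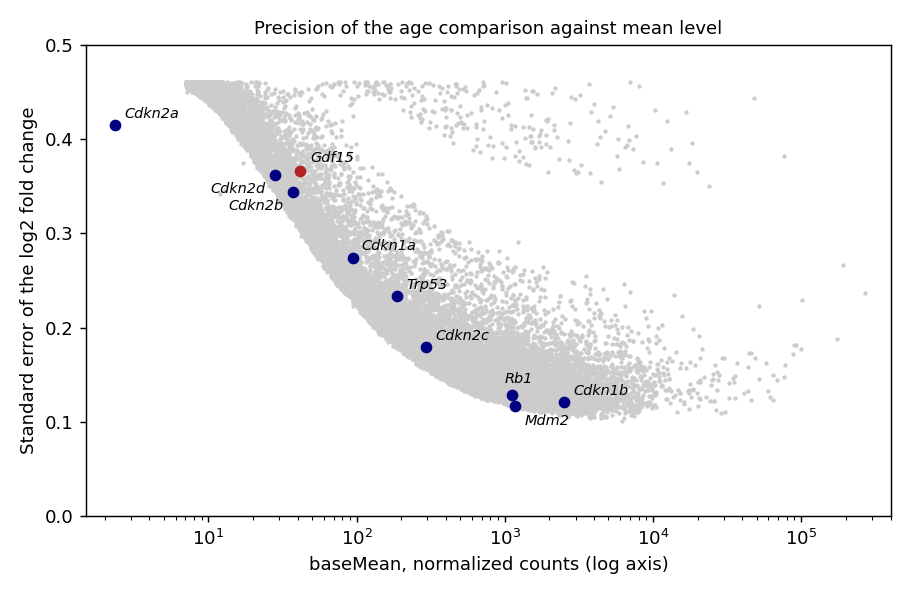
Standard error of the log2 fold change (vertical axis) against baseMean in normalized counts (horizontal log axis) for the 18636 genes tested (grey) and the 10 genes of the inhibitor and p53 axis (blue; Gdf15 red). Standard errors run from 0.12 for Mdm2 and Cdkn1b to 0.37 for Gdf15 among those tested, and Cdkn2a, at a baseMean of 2.35, lies left of the tested genes with 0.41.

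The RNA of p53 itself, of its inhibitor Mdm2 and of Rb1 did not pass the test. Trp53 (chromosome 11, 69580359 to 69591873) had a baseMean of 189, about 203 normalized counts in young and 175 in aged libraries, a fold of 0.861 (95% interval 0.627 to 1.18) and a DESeq2 adjusted p of 0.563. Of the 31-base words of its transcripts 89.9% occur in no other annotated gene, so a part of its reads could be shared, and 74.2% of genes of like abundance had a lower SE. Mdm2 (chromosome 10, 117688875 to 117710758) is both the ligase that degrades p53 and a p53 target. Its RNA stood at about 1170 normalized counts in young and 1180 in aged libraries, a fold of 1.00 with a 95% interval from 0.856 to 1.18 (DESeq2 adjusted p 0.982). Mdm2 was also among the most precisely measured genes, since 3.11% of the 5055 tested genes within a factor of 2 of its baseMean had a lower SE. Rb1 (chromosome 14, 73183673 to 73325822) stood at about 1100 normalized counts in young and 1140 in aged libraries, with a fold of 1.04 (95% interval 0.871 to 1.23) and an adjusted p of 0.825. On centred fold changes the log2 values of Mdm2 and Rb1 lay just below 0. Rb1 is overlapped by 4 annotated genes, among them the protein-coding Lpar6 and Rcbtb2 on the other strand, neither of which passed the test (DESeq2 adjusted p 0.262 and 0.183).

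Levels between genes were compared per kilobase, as the baseMean divided by the median length of a gene's protein-coding transcripts. Cdkn1b came first at 1050 normalized counts per kilobase. Mdm2 (377), Rb1 (240), Cdkn2c (165) and Trp53 (105) followed. Cdkn1a stood at 60.8, Gdf15 at 28.2, Cdkn2b at 26.8 and Cdkn2d at 22.3. The place of Gdf15 depends on age, at about 8.26 per kilobase in young libraries, below Cdkn2b (24.7) and Cdkn2d (23.6), and about 48.0 in aged libraries, above both (28.8 and 20.9). Cdkn2a was last at 2.69, so the first and last of the genes were 390-fold apart. Whether neighbours in this order differ beyond their spread cannot be said without values per library. Dividing by length assumes that the deposited values had not been scaled by length before, which is uncertain because they were made from TPM.

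**Figure D3:**
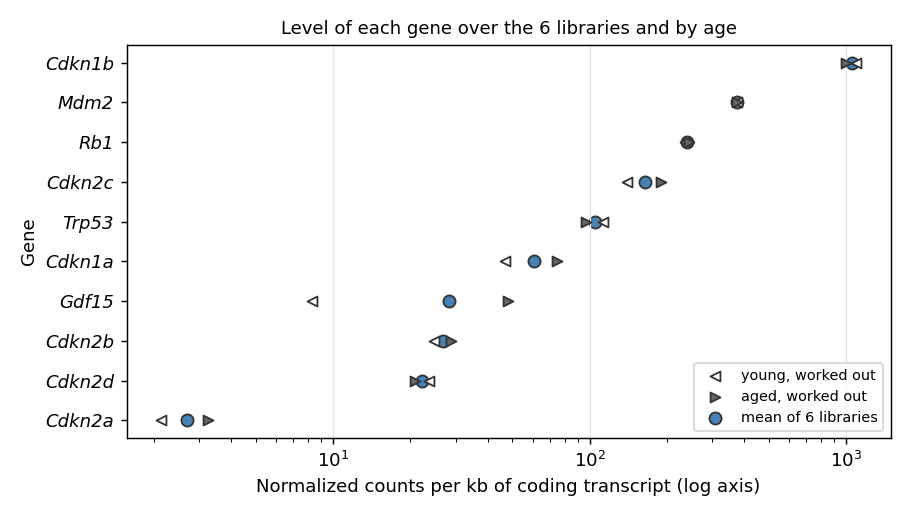
Level of each gene per kilobase of protein-coding transcript (horizontal log axis, normalized counts per kilobase), as the mean of the 6 libraries (circles) and as the young and aged levels worked out from the fold change (open and grey triangles). Cdkn1b lies at 1050 and Cdkn2a at 2.69 in the mean, and Gdf15 lies at 8.26 in young and 48.0 in aged libraries, on either side of Cdkn2b and Cdkn2d.

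Genes around these regulators were followed in 7 lists of 93 genes in all, of which 91 were tested. Of these, 9 were higher and 8 were lower in aged mice, 18.7% against the 21.2% of all genes tested. Their median log2 fold change was 0.01. Counts at an unadjusted p under 0.05 in these lists are to be read beside 6336 of the 26521 genes with a p. With centred fold changes the calls were 7 higher and 9 lower.

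Of 23 genes that p53 is known to switch on, 5 were higher in aged mice, 1 was lower and 17 did not pass, which is 26.1% called with a median log2 fold change of 0.13. The rises were those of Gadd45a, a growth arrest and DNA damage gene (1.12, SE 0.21), Pmaip1, which encodes the pro-apoptotic protein Noxa (1.05, SE 0.28), Phlda3, a repressor of Akt (0.86, SE 0.15), Zmat3, an RNA-binding zinc finger protein (0.59, SE 0.17), and Rrm2b, the p53-inducible subunit of ribonucleotide reductase (0.34, SE 0.13). Perp, a membrane protein of desmosomes that p53 and p63 induce, fell by 0.76 on the log2 scale (SE 0.23). Aen, a nuclease that p53 induces, was nearest to the threshold on the other side, with 0.35 (SE 0.17) and a DESeq2 adjusted p of 0.12. The call of Rrm2b is the least firm of these, with an adjusted p of 0.0396 that became 0.11 when fold changes were centred and 0.0555 when all genes with a p were adjusted.

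Among 15 genes that act on p53 or belong to its family, 13 were tested, Atr having no p and Trp73 too low a level. Hipk2, a kinase that phosphorylates p53, was higher (0.48, SE 0.17). With centred fold changes its adjusted p rose from 0.0299 to 0.0679. A fall was called for 3. Trp63, the p53 relative that directs stratified epithelia, fell by 1.61 on the log2 scale (SE 0.39), Chek1, a checkpoint kinase of S phase, fell by 1.03 (SE 0.30), and Mdm4, the partner of Mdm2 that restrains p53, fell by 0.89 (SE 0.19, DESeq2 adjusted p 4.62e-05). Ppm1d, a phosphatase that turns the p53 response off, stood nearest to the threshold without passing, at -0.28 (SE 0.15). The median of the 13 was -0.08.

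Among the 10 cyclins, kinases and the phosphatase that act in G1, 2 fell and none rose, with a median log2 fold change of -0.18. Cdk2, the kinase that p21 and p27 block, fell by 0.61 on the log2 scale (SE 0.12, DESeq2 adjusted p 4.86e-06), and its partner Ccne2 fell by 0.69 (SE 0.24). Ccne1 lay at -0.56 (SE 0.34) and did not pass. At an unadjusted p under 0.05 the count was the same, 2 lower and 0 higher.

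Of 12 pocket proteins, E2F factors and their partners, with a median log2 fold change of 0.08, E2f7, a repressor of the family, was lower (-1.21, SE 0.42) and 0 were higher by the DESeq2 values, while at an unadjusted p under 0.05 2 were lower and 1 was higher. The latter was Rbl2, which encodes the p130 pocket protein of quiescent cells, at 0.29 (SE 0.12) with an adjusted p of 0.0597. E2f7 had a baseMean of 20.8 and was not tested when only genes with a baseMean of at least 30 were adjusted.

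None of the 10 S phase genes that E2F drives passed the DESeq2 threshold, and their median log2 fold change was -0.28. Before adjustment, 5 were lower and 1 was higher at a p under 0.05, beside 6336 of the 26521 genes with a p in either direction. Mcm7, a subunit of the replicative helicase, was nearest, at -0.40 (SE 0.16) with an adjusted p of 0.0582, and it passed when fold changes were centred (adjusted p 0.0231).

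Regulators of the inhibitor genes, among them Polycomb proteins that silence the Cdkn2a and Cdkn2b locus, gave 1 rise and 1 fall among 19 tested, with a median log2 fold change of 0.01. Cbx7, a chromodomain protein of Polycomb complex 1, was higher (0.75, SE 0.16, DESeq2 adjusted p 2.77e-05). Ezh2, the methyltransferase of Polycomb complex 2, fell by 0.51 on the log2 scale (SE 0.18, adjusted p 0.0256). Foxo3, which can induce Cdkn1b, lay at 0.33 (SE 0.17) without passing.

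Of 4 transcription factors known to induce Gdf15 under stress, 2 were higher, beside 11.3% of all genes tested. In a list of 4 genes such a count cannot be set apart from that share. Atf3 was 2.83 higher on the log2 scale (SE 0.23, DESeq2 adjusted p 2.06e-31), of the same order as Gdf15. Ddit3, which encodes CHOP, was 0.55 higher (SE 0.15). Atf4 lay at -0.17 (SE 0.16) and did not pass, and for this factor much of the control is on translation, which RNA levels do not show. Egr1 did not pass.

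**Figure D4:**
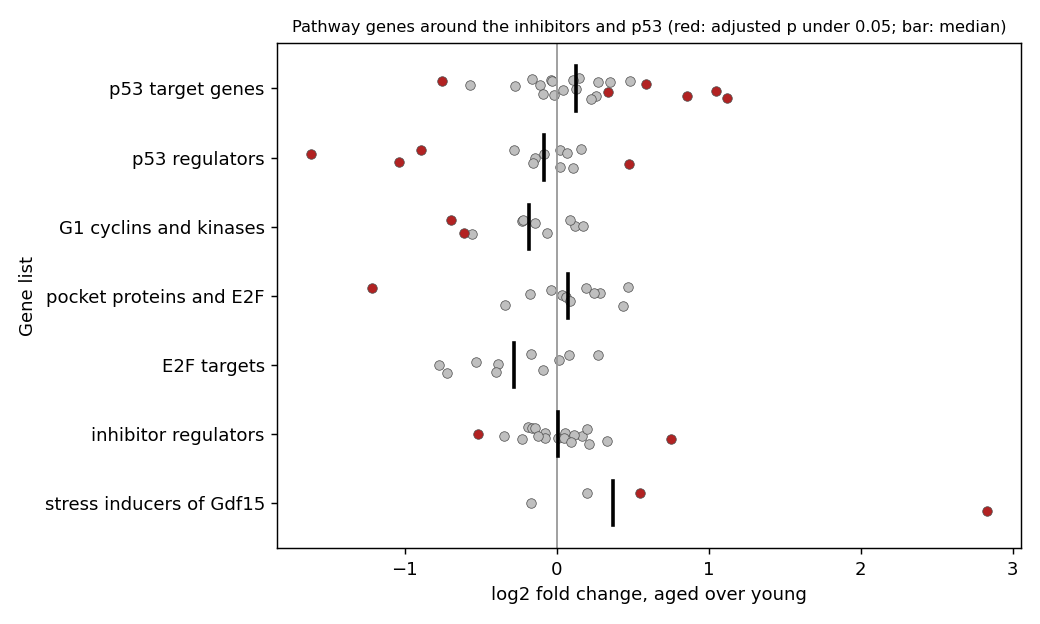
Log2 fold change, aged over young (horizontal axis), of the 91 tested genes of 7 pathway lists. Each point is a gene, red where the adjusted p is under 0.05, and black bars are list medians, which run from -0.28 for the E2F targets to 0.37 for the stress inducers of Gdf15.

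Marker genes of the cell types that the tissue can hold were read against the same background, 21.2% of all genes tested being called (11.3% higher and 9.92% lower). At an unadjusted p under 0.05 the background was 6336 of the 26521 genes with a p. Rpe65, the visual cycle enzyme that defines RPE, was at a baseMean of 43745 with a log2 fold change of 0.10 (SE 0.16, DESeq2 adjusted p 0.724), and 2 of 6 RPE markers were higher in aged mice and 0 lower, with 4 higher and 0 lower at an unadjusted p under 0.05. With centred fold changes 1 of the 6 was higher. All 4 macrophage markers were higher, and their summed level, worked out as above, went from about 6505 to 17865 normalized counts. With centred fold changes 3 of the 4 passed, and Csf1r, named after its values were seen, did not. Mast cell markers were higher in 3 of 4 (1136 to 2088 in sum). The other, Kit, named after its values were seen, had the highest baseMean of the 4 and lay at -0.33 on the log2 scale (unadjusted p 0.0448, DESeq2 adjusted p 0.143). T cell markers were higher in 2 of 4 (35.3 to 103 in sum). Of the fibroblast markers 2 of 4 were lower and 1 was higher, and their sum fell to 0.449 of the young level. These 4 are named after their values were seen. Col1a1 and Col3a1 fell (-2.91 and -2.14 on the log2 scale), while Dcn rose (0.51, DESeq2 adjusted p 0.00139). Pdgfra lay at 0.21 and did not pass. The fall of the sum is thus that of the 2 collagen genes. Of the proliferation markers 1 of 4 was lower (25.0%, near the background), and their sum went from 884 to 666. None of the markers stood at 0. Macrophages are known to be able to make Gdf15, and the part of these cell types in the values above was not tested. Rod photoreceptor and melanocyte markers gave no call in either direction among 8, also none at an unadjusted p under 0.05, endothelial markers 1 lower of 3 tested and skeletal muscle markers 1 lower of 3 tested. In lists this short, 1 or 2 calls cannot be set apart from the share over all genes.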

How the data were processed

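RNA was measured in 6 RPE/choroid libraries, 3 young and 3 aged, each from 2 eyes. The authors trimmed reads with BBDuk, mapped them with STAR to Ensembl GRCm38 transcripts, quantified them with Sailfish, turned TPM into normalized counts by total count, and compared the ages with DESeq2 (the versions of BBDuk, STAR and DESeq2 are not given in the sources used here). The deposited baseMean is a normalized signal averaged over all libraries. The authors gave fold changes and standard errors in log2 units. Their ratio was deposited as the Wald score. The p-value of that score and its adjusted p-value come from the authors' DESeq2 run.

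No gene was retested, since the table has 0 columns that name a sample. The header states no direction. The sign was read as young over aged, from the split of calls in the study, and reversed. Of 33924 genes, 7243 were at a baseMean of 0, 160 had no p, 7885 had no adjusted p (baseMean at most 7.07), and the other 18636 are the genes tested. The Wald p and the adjustment, computed again here, came within 0.449% and 0.572% of the deposited ones. The largest SE was 0.46, and SEs fell again at the lowest counts (median 0.24 under a baseMean of 2), as shrinkage of fold changes would give. No source states it. If it holds, changes of low genes are understated.

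The 95% intervals are the log2 fold change plus or minus the normal quantile times its SE, and cover what the SE covers. Gene positions and transcript lengths were from GENCODE M21, sequences from RefSeq. Alternatives were a threshold of 0.01, a log2 fold change of at least 1, no filter, a baseMean of at least 30, and centring on the median of genes with a baseMean of at least 100. The centring and the Benjamini-Hochberg adjustment were tested on simulated data, and the other steps were not. All steps were run in Python 3.11.15 with pandas 2.3.3 and scipy 1.17.1. The 10 genes and all lists were chosen with earlier results of these data known. Named list genes are those past the threshold, plus the nearest gene that missed it. The libraries were barcoded, pooled and sequenced on the same lane. The study describes the 3 libraries of a group as independent biological replicates. Which libraries shared an extraction or preparation day is not given in the sources used here.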

Additional observations from a re-analysis of the deposited data

How the results depend on the processing

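Gdf15 was higher under all 5 alternatives, with a log2 fold change of 2.48 to 2.54 and an adjusted p of 1.43e-10 to 5.81e-10, and no other of the 10 genes passed under any of them. The adjusted p of Cdkn1a ran from 0.0542 to 0.0927 and that of Cdkn2c from 0.0573 to 0.121. Centring took 0.06 from every log2 fold change, which turned Mdm2 to -0.06 (-0.0589) and Rb1 to -0.01 (-0.013), and the split of all called genes from 53.2% to 42.0% higher. The pathway genes called were 12 at an adjusted p under 0.01, 16 without a filter, 16 at a baseMean of at least 30 and 16 with centring (7 higher, 9 lower), but 6 where the log2 fold change had to reach 1 in size. Over the whole table the calls fell from 3949 to 2520 at an adjusted p under 0.01 and to 1542 with that minimum of change. Both follow from the stricter rule itself. No paired analysis was possible because no value per library was analysed here, and leaving out single libraries was not run for the same reason.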
